A study of Mus musculus with 19 samples.

Results

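Transcript levels were followed for 10 genes of bone morphogenetic protein (BMP) signalling, chosen by symbol out of 22958 genes in the expression table. They were the ligand genes Bmp2, Bmp4 and Bmp7, the type I receptor genes Bmpr1a and Bmpr1b, the pseudoreceptor gene Bambi, the SMAD genes Smad6, Smad7 and Smad9, and the antagonist gene Nog. All 10 were in the table and had enough reads to be tested. Protein levels and the activity of the pathway were not measured. The cells were mouse glial progenitor cells (GPC) and glia, both derived from embryonic stem cells (ESC), with 4 GPC and 3 glia RNA libraries. GPC came from feeder-free ESC cultures differentiated with 0.1 µM all-trans retinoic acid (RA), were sorted on day 8 for the surface antigen A2B5 with magnetic beads, and were grown on fibronectin with EGF and FGF2 at 10 ng/ml. The labels carry this same text for glia, name no ESC line, no added BMP and no BMP inhibitor, and do not say how long or in what medium the glia were kept. ChIP-seq peaks came from GPC alone, as 1 deposited list each for SOX3 (2 samples), SOX9 (3 samples) and NFIA (2 samples).

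BMP dimers bind a pair of type I and a pair of type II receptors, and the type I kinase then phosphorylates SMAD1, SMAD5 or SMAD9. These join SMAD4 and enter the nucleus, where ID genes are among the best known targets. SMAD6 and SMAD7 block the pathway from within and are themselves induced by it, BAMBI resembles a type I receptor but lacks a kinase, and noggin (Nog) binds BMPs outside the cell. In neural precursors BMPs are known for promoting astrocyte formation and for holding back oligodendrocytes, and noggin for the opposite.

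Counted reads in genes ranged from 12836998 to 22439837 per GPC library and from 6897294 to 17369367 per glia library, of which 4125 to 8768 and 4267 to 10589 fell in the 10 genes. Nothing in the labels tells whether replicates of a group were grown separately, so each p-value refers to the variation among these libraries, part of which may be technical. GPC replicate 3, the deepest library, stood apart from the other GPC libraries: its counts differed from theirs by a chi-square of 25.8 to 29.9 per gene, where the other 3 differed among themselves by 2.05 to 3.59. Summed over short marker lists, RPKM was 737–1146 in GPC and 6949.7–9237 in glia for 10 astrocyte genes, 95.7–118 and 1624–2288 for 9 oligodendrocyte genes, 1612–1775 and 1062–1439 for 8 oligodendrocyte precursor genes, and 5766–6213 and 1938–2050 for 8 neural progenitor genes. All 9 oligodendrocyte genes rose, but the other lists were mixed. Of the astrocyte genes 8 rose and Aldh1l1 and Slc1a3 fell, and of the precursor genes 5 rose and 3 fell (Olig1, Olig2 and Cspg4). Fabp7 made up most of the neural progenitor sum, and of that list 4 fell, Prom1, Pax6 and Sox2 rose, and Hes5 did not pass. Markers of other cells differed too, from 160.4–179 to 630.2–756 RPKM for 8 mesenchyme genes and from 30.7–35.03 to 101–115 RPKM for 8 neuronal genes. Of the mesenchyme genes 7 rose and Fbln1 fell, and of the neuronal genes 6 rose and Snap25 and Stmn2 did not pass. For endothelium (6 genes) the sums were 1.99–3.25 in GPC and 1.83–3.10 RPKM in glia, with Cldn5 at 0 in every library. The only 2 endothelial genes with enough reads went opposite ways, as Emcn fell (log2 change -3.10 ± 0.49) and Kdr rose (0.92 ± 0.19). For microglia (6 genes) they were 1.33–2.08 and 7.60–8.84 RPKM, nearly all from Tmem119, with Cx3cr1 at 0 in every library. In bulk RNA, more cells of a type and more RNA per cell cannot be told apart, and the part of the mesenchyme and neuronal markers in the results was not tested.

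Most of the 10 genes were higher in glia. Of the 10 genes, 7 rose in glia (Bmp2, Bmp4, Bmpr1a, Bmpr1b, Smad6, Smad7 and Smad9), 2 fell (Bmp7 and Bambi) and Nog did not pass the test. The test was edgeR's quasi-likelihood test with p-values adjusted by Benjamini-Hochberg over all 13588 genes tested, two-sided, at 0.05. Over all of those genes 35.2% rose and 35.2% fell, together 70.4%, so that 9 of 10 called is to be read against a high background. The median log2 change, glia minus GPC, was 1.37 over the 10 genes and 0.00 over all genes tested. Changes that passed and were at least 2-fold numbered 5 upward, where 16.5% of all genes did so, and 1 downward, where 9.24% did. In 9 of the 10 genes the RPKM of the 4 GPC and 3 glia libraries did not overlap, as in 69.1% of all genes. Glia lay above GPC in 7 of these (36.9% of all genes) and below in 2 (32.1%). RPKM scales reads to gene length and library depth, so it allows levels of different genes to be compared.

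Promoter sequences were at hand for 5 of the 10 genes, all among those that rose, in a RefSeq table (GRCm38.p6, a later build than that of the peaks). For 3 of them, Bmp4, Smad6 and Smad9, a stretch lies upstream of every annotated start of the gene, and it is shown here because these genes cover a ligand, an inhibitor and a transducer that rose together. Each is written 5′ to 3′ on the gene's strand and ends at the base before the outermost start. Capitals mark GGGCGG, the GC box, read on either strand.
Bmp4 (chr14:46390670-46390919, minus strand): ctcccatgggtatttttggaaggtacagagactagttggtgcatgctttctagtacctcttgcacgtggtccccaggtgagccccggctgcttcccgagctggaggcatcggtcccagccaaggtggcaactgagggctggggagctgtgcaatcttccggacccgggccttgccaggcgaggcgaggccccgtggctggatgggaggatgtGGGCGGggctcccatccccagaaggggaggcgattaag
Smad6 (chr9:64022086-64022309, minus strand): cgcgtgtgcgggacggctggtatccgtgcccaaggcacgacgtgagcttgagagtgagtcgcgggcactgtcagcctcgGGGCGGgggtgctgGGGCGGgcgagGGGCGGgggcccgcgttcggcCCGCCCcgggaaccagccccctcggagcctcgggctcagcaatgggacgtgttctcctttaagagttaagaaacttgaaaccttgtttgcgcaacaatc
Smad9 (chr3:54755332-54755454, plus strand): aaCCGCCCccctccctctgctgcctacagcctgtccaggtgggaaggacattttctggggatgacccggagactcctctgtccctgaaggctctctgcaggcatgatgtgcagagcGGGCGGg
These stretches of 250, 224 and 123 bases hold 1, 4 and 2 GC boxes. Within the whole window of 300 bases around a start, a GC box was found for Bmp4, Smad6, Smad9 and Bmpr1a but in none of the 3 Bmpr1b windows, and 35.7% of all 32851 promoters in the table hold it. The GC box was chosen for display after the sequences were seen. The SMAD motif GGCGCC was found in the Smad9 and Bmpr1a windows, outside the stretches shown (11.9% of all promoters hold it). G and C made up 64.0% of the Bmp4, 66.3% of the Smad6, 73.7% of the Smad9 and 79.3% of the Bmpr1a window. Their share was 48.3% to 55.7% in the Bmpr1b windows, with a median of 52.7% over all promoters. GGGCGG and GGCGCC consist of G and C alone, and the part of base content in their counts was not tested. The SMAD box GTCTG was found in 2 of the 3 Bmpr1b windows (49.6% of all promoters). Of the SOX motifs, ACAAAG was found in all 3 Bmpr1b windows (18.7% of all promoters), and ACAATG in 1 of them (12.6%). The palindromic NFI motif was in no window of these genes and in 0.0365% of all promoters. Both strands were searched, the 3 Bmpr1b windows belong to alternative starts of which 2 overlap, and GGCGCC and GGGCGG can share bases.

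The most abundant transcript among the ligands named BMP was not the same in GPC and glia. Bmp7, a BMP of the BMP5, BMP6 and BMP7 subgroup, was the highest of these in GPC, with 29.6, 27.3, 36.7 and 29.8 RPKM in replicates 1 to 4, and was at 5.60, 5.45 and 6.27 RPKM in glia replicates 1 to 3, the order used throughout. Every GPC library was above every glia library. The log2 change was -2.44 ± 0.13 (SE), a level 5.42 times higher in GPC, with an adjusted p of 8.52e-08.

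Bmp4, the BMP most often used to turn neural precursors into astrocytes, went the other way. GPC libraries held 1.21, 1.09, 2.04 and 1.34 RPKM of it, and those of glia 15.1, 9.10 and 15.7 RPKM. The groups were well apart, and the lowest glia value belonged to replicate 2, the shallowest library. The log2 change was 3.16 ± 0.25, an 8.95-fold rise (adjusted p = 2.52e-06).

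Bmp2, the close relative of Bmp4, was low in both states but also rose. GPC held 0.494, 0.532, 0.433 and 0.613 RPKM, from 16 to 25 reads per library, and glia 2.43, 2.25 and 2.02 RPKM. No GPC value reached those of glia, and the log2 change was 2.08 ± 0.18, or 4.22-fold (adjusted p = 3.36e-06).

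Bmp6, which is of the same subgroup as Bmp7 and was taken from a list of other pathway genes, was the highest of the ligands named BMP in glia. Its levels were 0.231, 0.406, 1.37 and 0.426 RPKM in GPC libraries, against 30.3, 27.7 and 30.0 in the glia libraries. The log2 change was 5.35 ± 0.36 (adjusted p = 3.58e-06), or 6.31 without GPC replicate 3, whose value was the highest of GPC. Summed over Bmp2 to Bmp7, Bmp8a and Bmp8b, ligand RPKM came to 30.9–41.2 in GPC and 46.3–55.2 in glia, without overlap. Bmp7 made up 88.3% to 91.3% of this sum in GPC and 10.1% to 11.8% in glia. The share of Bmp6 went from 0.711%–3.32% to 54.5%–59.8%, that of Bmp4 from 3.53%–4.96% to 19.7%–28.5%, and that of Bmp2 from 1.05%–1.83% to 3.67%–4.85%.

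**Figure D1:**
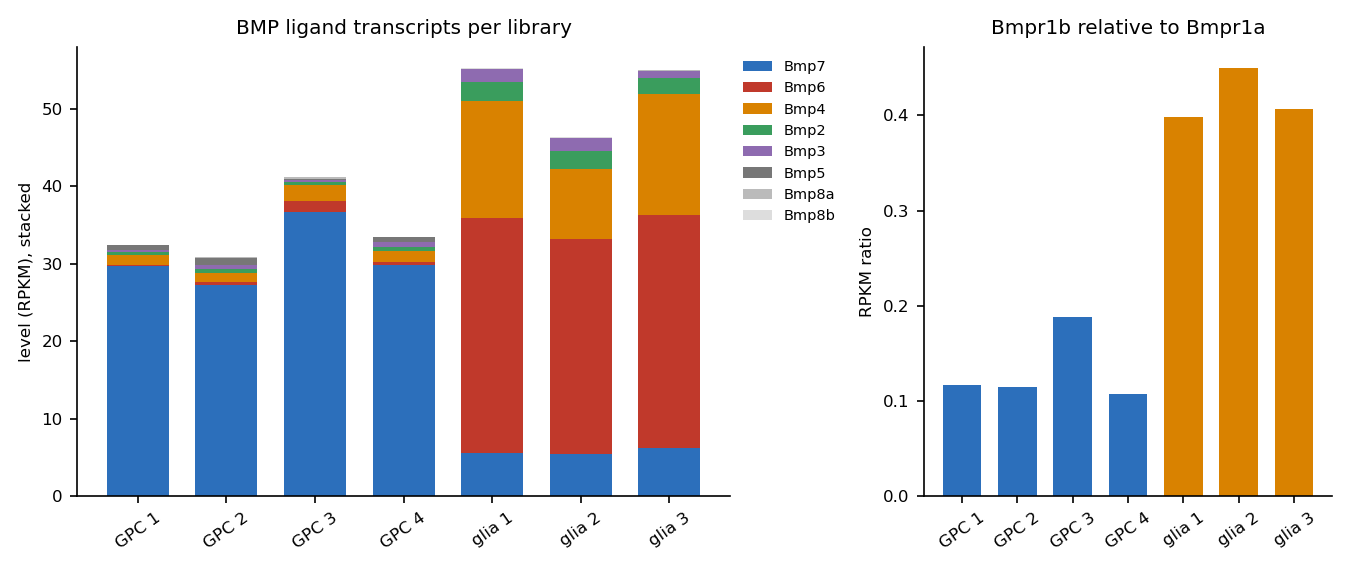
Left, RPKM of 8 BMP ligand genes stacked for each library, named by group and replicate; right, the ratio of Bmpr1b to Bmpr1a RPKM in the same libraries. Bmp7 fills 88.3% to 91.3% of the GPC bars and Bmp6 54.5% to 59.8% of the glia bars, and the receptor ratio is 0.107 to 0.189 in GPC and 0.398 to 0.449 in glia.

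Most of the other ligands of the family that could be tested rose. Of 12 further BMP and GDF genes, 6 had enough reads. Of these, 5 rose (Bmp3, Bmp6, Gdf6, Gdf10 and Gdf11) and 1 fell (Bmp5), where 35.2% of all genes tested rose and 35.2% fell. Gdf11, also called BMP11, was listed by its family, not by the SMADs it acts through, and lies outside the ligand sum above. It was higher than Bmp6 in every glia library, at 35.6, 34.8 and 32.1 RPKM. In GPC it was at 18.1 to 19.5 RPKM, below Bmp7, and its log2 change was 0.81 ± 0.07 (adjusted p = 3.01e-06 by edgeR's quasi-likelihood test). Bmp3, a BMP known for opposing the others in bone, had 0.222 to 0.572 RPKM in GPC and 0.954 to 1.71 RPKM in glia (log2 change 1.84 ± 0.36, adjusted p = 0.00102 by edgeR's quasi-likelihood test). Bmp5 was the member that fell, from 0.105–0.877 RPKM to 0.0227–0.0690 RPKM (log2 change -3.36 ± 0.89, adjusted p = 0.00751), on only 75 GPC and 5 glia reads. Without GPC replicate 1, 2 or 4, Bmp5 had too few reads to be tested. Gdf10, known as BMP3B, had 2 reads in GPC and 306 in glia, a ratio, scaled to library totals, of 226 with an exact 95% interval of 62.1 to 1876 that covers counting error only.

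Both type I receptor genes rose, Bmpr1b the more. Bmpr1a, the widely expressed receptor ALK3, was the most abundant of the 10 genes in each state, at 37.8, 43.3, 42.8 and 41.6 RPKM across GPC and at 65.9, 66.5 and 57.4 RPKM across glia. No library of one group reached the other, though the rise was only 1.49-fold (log2 change 0.58 ± 0.08, adjusted p = 6.37e-05). Bmpr1b, the receptor ALK6, had 4.41, 4.98, 8.08 and 4.45 RPKM in the GPC libraries, and 26.3, 29.9 and 23.4 RPKM in those of glia. GPC replicate 3 was the high one of its group and still far below glia. The log2 change was 2.22 ± 0.22, or 4.65-fold (adjusted p = 3.12e-05), and 2.48 without GPC replicate 3. Relative to Bmpr1a, Bmpr1b stood at 0.117, 0.115, 0.189 and 0.107 in GPC and 0.398, 0.449 and 0.407 in glia. Its share of the type I receptor RPKM (Bmpr1a, Bmpr1b, Acvr1 and Acvrl1) was 8.01%–13.3% in GPC and 25.8%–28.1% in glia.

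The receptors that BMPs share with activins showed smaller differences. Of 10 other receptor and co-receptor genes 8 were tested, 3 rose, 1 fell and 4 did not pass. Those 4 were Acvr1, Bmpr2, Acvr2a and Acvr2b, with log2 changes of -0.10, -0.35, 0.15 and -0.28 and SE of 0.08, 0.14, 0.11 and 0.17. For Bmpr2, the type II receptor dedicated to BMPs, the adjusted p was 0.0508. With the replicate number as a block, and also without GPC replicate 3, 2 of the 8 genes fell instead of 1. The co-receptor gene Tgfbr3 rose from 0.248–0.403 to 1.67–1.87 RPKM (log2 change 2.34 ± 0.17), and the BMP co-receptor genes Rgma and Rgmb by 0.58 ± 0.18 and 0.54 ± 0.14. Rgma was abundant, at 118 to 194 RPKM in GPC and 187 to 239 RPKM in glia, with GPC replicate 3 inside the glia range. The Rgma call ended without glia replicate 1 (adjusted p = 0.0551) or glia replicate 3 (0.0774). Eng, a co-receptor best known from endothelium, changed by -2.20 ± 0.38, from 0.5999–1.34 to 0.132–0.330 RPKM. Of the endothelial markers tested, Emcn fell as well, from a mean of 1.76 to 0.195 RPKM, and Kdr rose from 0.941 to 1.89 RPKM. Their part in the change of Eng was not tested.

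Bambi, the receptor decoy, fell in glia. The 4 GPC libraries had 2.95, 3.24, 2.15 and 3.45 RPKM, and the 3 glia libraries 1.61, 1.80 and 1.59 RPKM. The groups did not overlap, and here GPC replicate 3 was the low library and lay nearest to glia. The level was 1.80 times higher in GPC (log2 change -0.85 ± 0.16, adjusted p = 0.000964). With Bmpr1a up and Bambi down, the ratio of Bmpr1a to Bambi RPKM was 12.1 to 19.9 in GPC and 36.1 to 41.0 in glia.

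**Figure D2:**
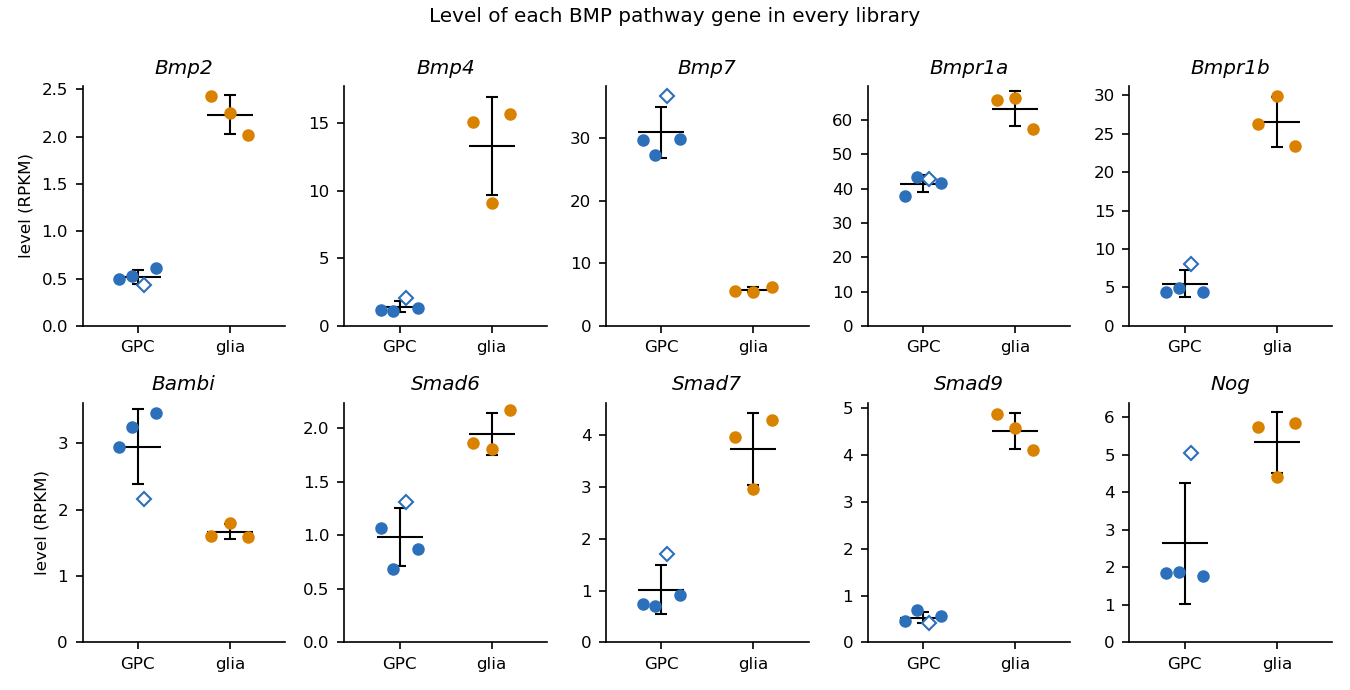
RPKM of each of the 10 genes in every library, GPC in blue and glia in orange, with the mean and SD of each group in black; the open diamond is GPC replicate 3. Only for Nog does a GPC library, replicate 3 at 5.06 RPKM, lie within the range of glia.

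Smad9 showed the largest rise among the SMAD genes tested. SMAD9, also called SMAD8, is the least studied of the transducers that BMP receptors phosphorylate. GPC had low levels of it, at 0.459, 0.688, 0.412 and 0.557 RPKM, while glia had 4.86, 4.56 and 4.10 RPKM. The 3 glia libraries were close together and far above GPC, with a log2 change of 3.07 ± 0.16, or 8.39-fold (adjusted p = 9.24e-08). Of the other transducers, Smad1 rose by 0.54 ± 0.07 from 18.0 ± 1.14 RPKM (SD, n = 4) to 26.8 ± 1.34 RPKM (n = 3). Smad5 fell, with a log2 change of -0.40 ± 0.12 (32.0 ± 5.15 to 25.0 ± 2.49 RPKM, adjusted p = 0.0138 by edgeR's quasi-likelihood test), a call that ended without glia replicate 3 (adjusted p = 0.0681). Smad4, shared with the TGF-beta branch, differed by -0.08 ± 0.07 (adjusted p = 0.336). Smad9 thus made up 0.694% to 1.44% of the summed Smad1, Smad5 and Smad9 RPKM in GPC and 7.58% to 8.60% in glia, so that Smad1 and Smad5 supplied most of these transcripts in each state.

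The inhibitory SMAD genes were both higher in glia. Smad6, which acts mainly on BMP receptors, had 1.07, 0.682, 1.32 and 0.869 RPKM across the GPC libraries, and 1.86, 1.80 and 2.17 RPKM across those of glia. These ranges came close but did not meet, and the log2 change was 0.92 ± 0.21, or 1.89-fold (adjusted p = 0.00303). Smad7, which acts on BMP and TGF-beta receptors alike, had 0.743, 0.697, 1.71 and 0.920 RPKM among GPC replicates, against 3.96, 2.95 and 4.29 RPKM among those of glia. GPC replicate 3 was again the highest of its group and glia replicate 2 the lowest of glia, with a gap left between them. The log2 change was 1.80 ± 0.29, or 3.49-fold (adjusted p = 0.000458), and 2.25 without GPC replicate 3. Other inhibitors inside the cell differed less. Of 5 listed, Ski, which binds SMADs as a co-repressor, rose by 0.54 ± 0.09, and Smurf1, Smurf2, Skil and Tob1 did not pass.

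Nog did not pass the test with all libraries. It stood at 1.86, 1.89, 5.06 and 1.76 RPKM in GPC libraries, and at 5.74, 4.41 and 5.86 RPKM in glia libraries. GPC replicate 3 was level with glia, and the other 3 GPC libraries were below all glia libraries. The log2 change was 0.94 ± 0.38 (adjusted p = 0.0514). Without GPC replicate 3 it was 1.55 (adjusted p = 9.61e-07 by edgeR's quasi-likelihood test), and the adjusted p ranged from 9.61e-07 to 0.144 over all 12 alternatives, passing in 4 of them. Relative to Bmp4, Nog RPKM was 1.31 to 2.48 in GPC and 0.373 to 0.484 in glia. Bmp4 was only 3.53% to 4.96% of the ligand sum in GPC and 19.7% to 28.5% in glia. The ratio therefore does not set Nog against the BMP ligands as a whole.

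Further secreted antagonists and modulators were split. Of 18 listed 11 were tested, 6 rose, 3 fell and 2 did not pass. Nbl1 (DAN), a binder of BMPs and GDFs, was the most abundant of those that rose by over 2-fold, at 33.6 to 46.4 RPKM in GPC and 148 to 171 RPKM in glia (log2 change 2.03 ± 0.11). Chordin (Chrd), a BMP trap, rose by 1.25 ± 0.13, from 1.73–2.19 to 4.30–5.29 RPKM. The chordin-like gene Chrdl1 fell, from 2.35–3.48 to 0.449–1.01 RPKM (log2 change -2.35 ± 0.24). Tll2, a protease of the family that cleaves chordin, changed by -1.34 ± 0.31, at less than 1 RPKM in every library.

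GPC replicate 3 differed from its group in both directions across the 10 genes. Relative to the mean of the other GPC libraries its RPKM was 2.75 times as high for Nog, 2.17 for Smad7, 1.75 for Bmpr1b, 1.68 for Bmp4 and 1.505 for Smad6. It was 0.671 for Bambi, 0.726 for Smad9 and 0.792 for Bmp2, and 1.05 and 1.27 for Bmpr1a and Bmp7. For Nog, Smad7, Bmpr1b, Bmp4, Smad6, Bambi and Bmpr1a this lay toward glia, and for Smad9, Bmp2 and Bmp7 away from glia. Without this library 8 of the 10 genes rose and 2 fell, in a setting where 75.8% of all 13550 genes tested were called.

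Ordered by mean level, GPC ran Bmpr1a, Bmp7, Bmpr1b, Bambi, Nog, Bmp4, Smad7, Smad6, Smad9 and Bmp2. From Bambi down, each gene overlapped its next neighbour in that order. Glia ran Bmpr1a, Bmpr1b, Bmp4, Bmp7, Nog, Smad9, Smad7, Bmp2, Smad6 and Bambi. There, Bmp7 overlapped Nog, Nog overlapped Smad9, Smad9 overlapped Smad7, and Bmp2 overlapped Smad6.

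BMP target genes did not move as a block. Of 8 listed 7 were tested, 4 rose, 1 fell and 2 did not pass, and Msx2 had too few reads (5 in GPC and 6 in glia). Id2 rose from 61.6–75.1 to 173–191 RPKM (log2 change 1.43 ± 0.08) and Id4 from 5.11–11.5 to 200–239 RPKM (4.91 ± 0.28). Id1, a classic direct target of BMP SMADs, was at 52.6, 44.5, 59.9 and 45.4 RPKM in GPC libraries and at 58.6, 34.8 and 61.0 RPKM in glia libraries, with full overlap (log2 change 0.01 ± 0.19, adjusted p = 0.953). Id3 was at 296 to 424 RPKM in GPC and 230 to 337 RPKM in glia (-0.36 ± 0.15, adjusted p = 0.0565 by edgeR's quasi-likelihood test). By the same test the adjusted p for Id3 was 0.0041 without GPC replicate 3 and 0.0278 without glia replicate 3. By DESeq2's Wald test on all libraries it was 0.0223.

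Msx1, a homeobox target in the dorsal neural tube, had 1.15 to 1.64 RPKM in GPC libraries and 3.95, 1.82 and 5.17 RPKM in glia libraries (1.46 ± 0.31, adjusted p = 0.00175 by edgeR's quasi-likelihood test). Hey1, which Notch also drives, changed by -0.38 ± 0.10 (adjusted p = 0.00484). Atoh8 rose by 0.73 ± 0.26 (adjusted p = 0.0257). The Atoh8 call ended without GPC replicate 4 (adjusted p = 0.0524), glia replicate 1 (0.0782) or glia replicate 3 (0.095), and with the replicate number as a block (0.0531).

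Over all 56 other genes of the BMP lists, 40 were tested, of which 20 rose, 7 fell and 13 did not pass, with a median log2 change of 0.28. The share that rose, 50%, and the share that fell, 17.5%, each compare with 35.2% of all genes tested. Those 2 shares, together 70.4% called, are also the background for the counts of every single list in this report. Without GPC replicate 3, 19 rose and 10 fell.

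**Figure D3:**
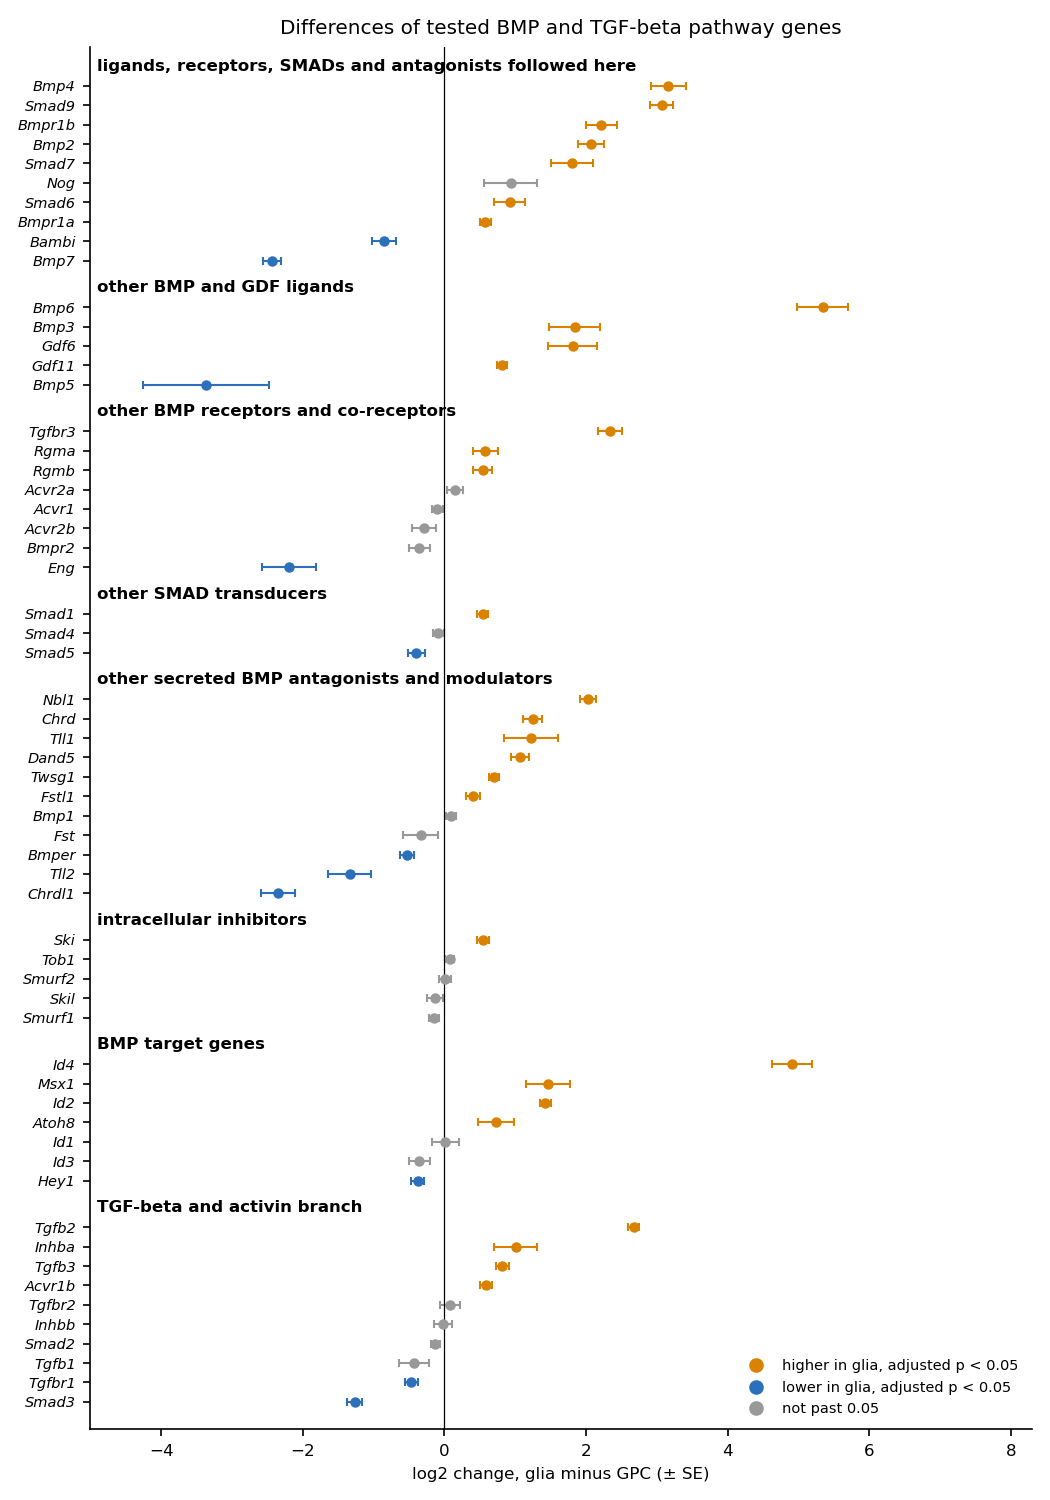
Log2 change of each tested gene, glia minus GPC, with its SE, grouped by role; orange rose, blue fell and grey did not pass at an adjusted p of 0.05. The first group holds the 10 genes followed here; Gdf10 is left out because 2 GPC reads give its change no firm size.

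In GPC, 4 of the 10 genes had a SOX3 or SOX9 peak assigned to them by the authors, as did 14.5% of all genes tested, and the nearest of these 4 peaks was 18484 bases from the start site. SOX9 is the SOX factor of glial fate and SOX3 one of neural progenitors. Coordinates are in mm9, and the distances are the authors' own. A SOX9 peak at chr14:47028529-47029129 lay 18484 bases upstream of Bmp4. Another, at chr18:75459881-75460481, lay 67002 bases upstream of Smad7. The third, at chr18:3688043-3688643, lay 180388 bases downstream of the Bambi start, a distance longer than the Bambi gene in the RefSeq table. The only SOX3 peak, at chr9:63806973-63807097, lay 62831 bases downstream of the Smad6 start, a distance shorter than the length of that gene. Bmp2, Bmp7, Bmpr1a, Bmpr1b, Smad9 and Nog had no assigned peak of SOX3 or SOX9.

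These counts were small. Having 3 of 10 genes with a SOX9 peak compares with 11.5% of all genes tested, and 1 of 10 with a SOX3 peak with 5.80%. The genes with a SOX9 peak in GPC included both directions of change, as Bmp4 and Smad7 rose in glia and Bambi fell. None of the 3 SOX9 peaks overlapped a SOX3 peak, where 10.8% of all SOX9 peaks did, and none overlapped an NFIA peak, where 28.4% of all SOX9 peaks did. The SOX3 peak of Smad6 overlapped neither a SOX9 nor an NFIA peak, where 21.9% and 7.39% of all SOX3 peaks did. The SOX3 peak and 2 of the 3 SOX9 peaks lay within 100 kb of the start site, as did 66.1% of all SOX3 and 67.9% of all SOX9 peaks. The nearest NFIA peak was 9557 bases from the Smad6 peak, 24403 bases from the Bmp4 peak, 78351 bases from the Smad7 peak and 155041 bases from the Bambi peak, centre to centre.

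More peaks lay at other genes of the pathway. Of the 56 other BMP genes 7 had an assigned SOX3 peak and 10 a SOX9 peak. Over all genes tested for expression, 5.80% had a SOX3 peak and 11.5% a SOX9 peak. Only 40 of the 56 were tested, and Hfe2 and Bmp8a, both with a SOX9 peak, were not among them. Bmp6, the ligand that rose most among the BMPs named BMP2 to BMP7, had a SOX9 peak 48578 bases upstream (chr13:38388707-38389307) whose centre was 5 bases from that of an NFIA peak. Rgma had 5 SOX3 and 3 SOX9 peaks between 72803 and 317216 bases upstream, and each of the 3 SOX9 peaks overlapped a SOX3 peak. At Rgmb, 2 SOX9 peaks overlapped each other and 1 SOX3 peak about 167381 bases upstream. Id4 likewise had 2 SOX9 peaks over 1 SOX3 peak, 63000 bases downstream of its start. Twsg1, a cofactor of chordin that rose in glia (log2 change 0.70 ± 0.07), was singled out for its peaks after they were seen: it had a SOX3 peak 39135 bases upstream and a SOX9 peak 22135 bases downstream.

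**Figure D4:**
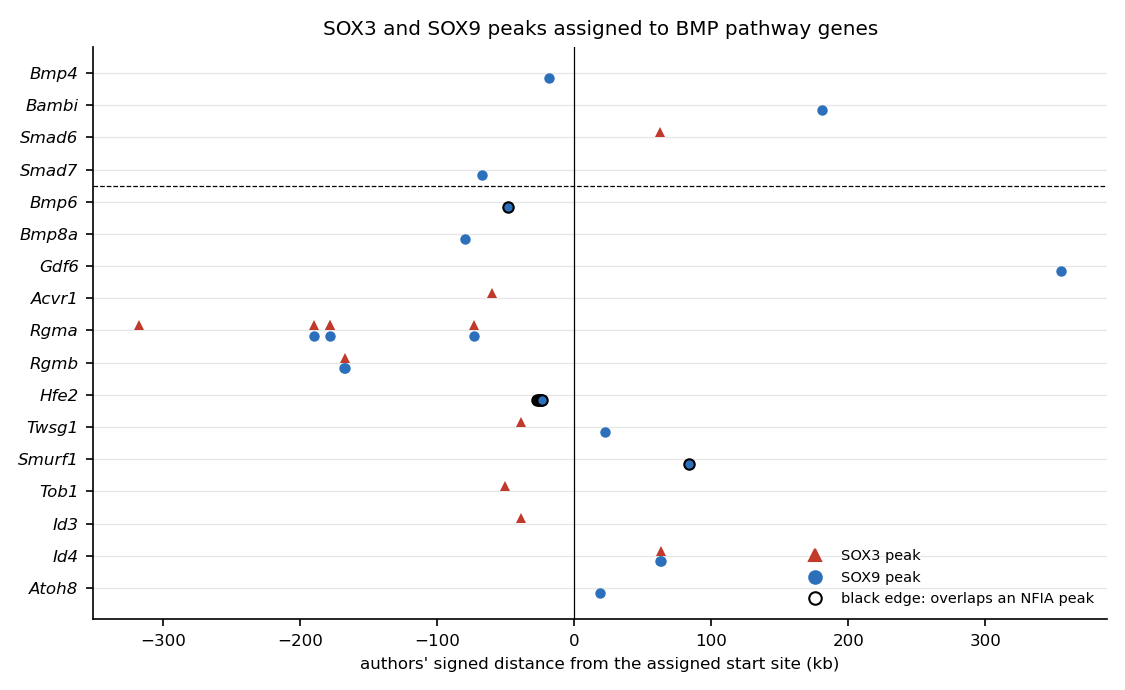
Signed distance in kb, as deposited, from the assigned start site to each SOX3 peak (triangles) and SOX9 peak (circles), negative upstream; genes above the dashed line belong to the 10 followed here. Of those 4 genes no peak carries the black edge that marks overlap with an NFIA peak, while the peaks of Bmp6, Hfe2 and Smurf1 do.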

How the data were processed

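Per the labels' protocols, total RNA libraries were made with TruSeq kits. The authors deposited read counts and RPKM per gene and library. The sources used here name no aligner, read counter or gene model. Use of strand is not stated either, and reads of genes that overlap in antisense then cannot be told apart. Per the submitters' processing notes, MACS and MACS2 were used and the build was mm9. SOX3, SOX9 and NFIA peaks were deposited as 1 list per factor, SOX peaks with the authors' assigned gene and distance, and NFIA peaks with a score. H3K27Ac samples were not analysed here.

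Counts as deposited were tested with edgeR 4.0.16 in R 4.3.3 (quasi-likelihood test, TMM, default filter on low counts, two-sided, Benjamini-Hochberg over 13588 genes, called at 0.05). The log2 changes come from this fit, and levels are the deposited RPKM, without a pseudocount. Each SE was derived as the absolute log2 change divided by the square root of the F statistic of the test. On simulated data for this comparison (13494 genes), 96.9% of 98 genes changed by 1 on the log2 scale were recovered. Of 98 genes changed by 2, 100% were recovered. Every simulated gene was given the same dispersion between libraries, so recovery of genes that vary more was not tested. Recovery was not tested with 70.4% of genes called, as in the real libraries. Recovery with a library as far from its group as GPC replicate 3 was not tested either. Alternatives were DESeq2 1.42.0, DESeq2 size factors, other filters, a replicate block and leaving out each library. Peaks counted as overlapping when they shared at least 1 base. Intervals on read ratios cover counting error only.

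The members, lists and alternatives were chosen with earlier results of these data known. Named were all 10 members, all SMAD transducers and BMP targets listed, and up to 4 called genes with the largest change from each other list. Gdf11, genes named beside a count and genes named for a peak were added after their values were seen.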

Additional observations from a re-analysis of the deposited data

Results flagged for a closer look

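In 5 of 38 BMP and TGF-beta family genes examined, the RPKM of GPC replicate 3 stood apart from the other 3 GPC libraries: its gap to the nearest of them, divided by the range of the group, was above Dixon's 95% critical value for 4 samples. Chance alone puts about 5% of groups past this value. The values of GPC replicate 3 were 8.08 RPKM for Bmpr1b, 5.06 for Nog, 11.5 for Id4, 25.1 for Smad3 and 0.0417 for Msx2, the last resting on 2 reads. For Bmpr1b, Nog and Id4 this library lay toward glia, and for Smad3, which fell in glia, it lay away from glia.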

How the results depend on the processing

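The counts of the 10 genes that rose (7 or 8) and fell (2) held over all 12 alternatives, and so did the call of every gene among them except Nog, which passed in 4, and Bmp2, which had too few reads when 50 counts in 3 libraries were asked for. Of the other named genes, Id1, never called, changed sign: its log2 change was -0.00882 with DESeq2, -0.000813 without a filter and -0.0750 with the replicate block, and between -0.12 and 0.21 when 1 library was left out. All genes called numbered 8367 to 10273. With the replicate number as a block 8900 genes were called, with 8 of the 10 genes up and 2 down, and 19 and 8 of the other pathway genes. Whether the replicate numbers pair the samples was not settled. Same-numbered libraries deviated from the means of replicates 1 to 3 with correlations of -0.03, 0.15 and 0.06. GPC replicates 2 and 3 correlated best with the glia library of their own number, and GPC replicate 1 with glia replicate 3 (0.07). Deviations from a mean of 3 libraries are too constrained to decide it. Of the other pathway genes 15 to 21 rose and 5 to 10 fell. Of the SOX9 peaks at the 10 genes, 2 of 3 lay within 100 kb, and no overlap changed when 50% of the shorter peak was asked for. Depth limits Bmp2, Bmp4, Smad6 and Smad9 in GPC, with 16 to 88 reads per library, and peaks have no replicate values.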

Other observations

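The TGF-beta and activin branch, which uses SMAD2 and SMAD3, had 12 listed genes, of which 10 were tested, 4 rose, 2 fell and 4 did not pass, with a median log2 change of 0.03. Tgfb2, a ligand of that branch, rose from 5.47–6.36 RPKM in GPC to 35.4–42.3 RPKM in glia (log2 change 2.68 ± 0.08, adjusted p = 3.65e-09 by edgeR's quasi-likelihood test), and Tgfb3 by 0.82 ± 0.09. Smad3, a transducer of that branch, fell from 19.8–25.1 to 8.59–9.79 RPKM (log2 change -1.27 ± 0.10), so that Smad3 and Smad9 changed in opposite directions. Inhba, an activin subunit gene, rose by 1.01 ± 0.30 (adjusted p = 0.0122), a call that ended without glia replicate 1 (adjusted p = 0.077) and with the replicate block (0.0558).

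Hfe2, the gene of the BMP co-receptor hemojuvelin, had 5 SOX9 peaks in GPC, the most of any listed BMP gene for that factor, between 23697 and 27366 bases upstream. The peaks at 23697 and 24135 bases overlapped each other, so the 5 need not be separate sites. Each of the 5 overlapped an NFIA peak, and 0 reads were counted for Hfe2 in all 7 libraries, which allows up to 3 reads in each. The deposited NFIA scores of the nearest peaks there were 34 to 113, against 14 to 23 for those nearest to the peaks of Bmp4, Smad6, Smad7 and Bambi.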
